A study of Homo sapiens with 5 samples.

Results

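Regions of the genome of BEAS-2B cells were studied at which both Nrf2 and HIF1α were mapped by ChIP-seq after iAs treatment and neither factor was mapped without it. BEAS-2B is an immortalized line of human bronchial epithelial cells and iAs is inorganic arsenic. After a night in medium without serum, the cells either received 1 μM iAs for 6 h or no iAs, so all libraries come from serum-starved cells of a single line. There were 4 ChIP libraries, 1 for each antibody and condition, and the lists of intervals (peaks called by the authors) hold 3204 intervals for Nrf2 control, 7743 for Nrf2 iAs, 6008 for HIF1α control and 12826 for HIF1α iAs. An input DNA library without antibody carried no intervals and was not used in the comparisons. Of the 21088 merged regions of the authors, 273 overlapped an interval of the Nrf2 iAs library and an interval of the HIF1α iAs library by at least 1 bp and no interval of either control library. These 273 regions, 1.29% of all merged regions, are called co-gained here. They were chosen by the presence of an interval in each iAs library and the absence of one in each control library, so their number, the widths of their intervals and the overlap of the intervals are descriptions. With 1 library per condition there was no replicate check, no difference between conditions was tested, and an absent control interval says only that none was listed. The intervals have no height, and the number of reads behind each is unknown.

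Nrf2 (gene NFE2L2) is the transcription factor of the cellular antioxidant response. It is held low by KEAP1, which delivers it to the ubiquitin ligase, and after oxidative or electrophilic stress it binds with a small MAF partner to antioxidant response elements, whose core is TGACNNNGC and whose most typical form, TGACTCAGC, contains the AP-1 element TGAGTCA as read on the other strand, so that matches of the 2 elements can share letters. HIF1α is the regulated subunit of hypoxia inducible factor 1. It is degraded after prolyl hydroxylation by the EGLN enzymes when oxygen is plentiful, and otherwise binds with ARNT to the short hypoxia response element ACGTG or GCGTG. Arsenic is a classical activator of Nrf2 in airway cells, and stabilization of HIF1α by arsenic under normal oxygen is known as well.

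The sequences below show the antioxidant core (capitals) with 10 bases on each side, in co-gained regions at genes of the lists described further on and at those co-gained regions with the core closest to a transcription start site (TSS). They are given to show which forms of the core the regions hold. They were read from the hg19 sequence on the strand on which the core reads TGACNNNGC, and where a region had several cores, the one nearest the centre of its Nrf2 interval is given, with both cores for PSMA5. The regions of GSR and MYC also hold a core, whose sequence is not shown. The first 5 carry the typical form TGACTCAGC, and the others carry variants of it. The cores shown for HGS, PLK2 and TBC1D15 lie outside the Nrf2 interval and inside the HIF1α interval.
DNTTIP2 and GCLM (chr1:94344138-94344166, minus strand): tgtctcattcTGACTCAGCgatgcaggga
PSMA5 (chr1:109968711-109968739, plus strand): gacccaggggTGACTCAGCggtaggacaa
TBK1 (chr12:64846066-64846094, minus strand): gcccccgctcTGACTCAGCatcccagcct
MT2A (chr16:56642382-56642410, plus strand): gagccgcaagTGACTCAGCgcggggcgtg
HGS and ARL16 (chr17:79651180-79651208, minus strand): ggggccgcgcTGACTCAGCgccgggcgga
PSMA5 (chr1:109968829-109968857, plus strand): gggagccccaTGACACGGCagaacccagg
PSMC3 (chr11:47447781-47447809, minus strand): gagagtccagTGACTCGGCaggagaagat
PSMB6 (chr17:4699430-4699458, plus strand): ccaaagagcgTGACAGAGCgctttacgac
USP14 (chr18:158980-159008, plus strand): gaatagtttcTGACGCTGCcctggtgtgc
TXNRD1 (chr12:104609539-104609567, minus strand): ctgtgggaacTGACGGAGCcgaaggacgc
KLF4 (chr9:110252447-110252475, minus strand): tgcggacgcgTGACCGTGCcgcccgctga
JMJD6 and MXRA7 (chr17:74705694-74705722, plus strand): gcaggcacgcTGACAATGCgcatcccggc
RHEB (chr7:151216953-151216981, minus strand): gggagggtcaTGACGCAGCgagtttcagt
DUSP5 (chr10:112257598-112257626, minus strand): gtgccgtccgTGACGCGGCtgcccatata
PLK2 (chr5:57756392-57756420, plus strand): tccggccgtaTGACAGGGCtcgtctgcag
TOMM5 (chr9:37592528-37592556, plus strand): atcgcggctcTGACTTAGCagcttccagc
ZNF593 (chr1:26496379-26496407, plus strand): cggcgtggccTGACGTAGCtgatcggccc
NUSAP1 (chr15:41625051-41625079, minus strand): ctcttaacttTGACTAGGCagaaatttat
RHCE and MACO1 (chr1:25756813-25756841, minus strand): ggggtacgaaTGACAAAGCaaaccccaca
TBC1D15 (chr12:72233521-72233549, minus strand): tgcctggtaaTGACGTAGCagaacctcac
SPAG4 (chr20:34203893-34203921, plus strand): ttagcgtcagTGACTAGGCagcagggggt

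The question behind the regions is how far the sites that Nrf2 and HIF1α gained with iAs were the same sites. Of the 3789 merged regions with a Nrf2 iAs interval and no control interval of either factor, 273 had a HIF1α iAs interval, which is 7.21% (95% Wilson interval 6.42 to 8.07). At TSSs (centre within 1 kb of the start of a protein-coding transcript) this share was 46.3% (190 of 410, interval 41.6 to 51.2), and away from TSSs it was 2.46% (83 of 3379, interval 1.99 to 3.03). HIF1α iAs intervals are common at gene starts in general. Of 16758 canonical TSSs without a control interval in the 200 bp around them, 24.2% had a HIF1α iAs interval there, and of 16008 without a control interval within 1 kb, 33.7% had one within 1 kb. The 46.3% at TSSs is to be read beside these shares, which were counted without regard to Nrf2 iAs intervals. The counts depend on how much overlap is asked for. With a reciprocal overlap of 50%, 127 of the 273 regions remained, which is 3.35% of the gained Nrf2 regions (19.3% at TSSs and 1.42% away from them), and 42 regions were left when the wider 50% of each iAs list was used. Seen from HIF1α, 2.88% of its 9464 gained regions had a Nrf2 iAs interval, with 2.59% at TSSs (190 of 7331, interval 2.25 to 2.98) and 3.89% away from TSSs (83 of 2133, interval 3.15 to 4.80). For comparison, of 2079 regions with Nrf2 in both conditions and no HIF1α control interval, 131 (6.30%) had a HIF1α iAs interval, and of 2794 regions with HIF1α in both conditions and no Nrf2 control interval, 376 (13.5%) had a Nrf2 iAs interval. Intervals on shares cover the counting of regions only, since regions of 1 library are not replicates.

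The co-gained regions lay mainly at gene starts. Of the 273 regions, 190 were at a TSS (69.6%, interval 63.9 to 74.8), against 6.26% of the 3516 regions with a Nrf2 iAs interval alone, 77.7% of the 9191 regions with a HIF1α iAs interval alone and 59.7% of the 335 regions with an interval in all 4 libraries. The difference was 63.3 percentage points from the Nrf2-only regions (95% Newcombe interval 57.6 to 68.5), and the share was lower by a difference of -8.10 points (-13.9 to -2.87) than in the HIF1α-only regions. The median distance from the centre to the nearest TSS was 433 bp, against 37485 bp for Nrf2-only and 308 bp for HIF1α-only regions. By class of the centre, 110 regions (40.3%) were in a promoter, meaning up to 3 kb upstream of a TSS, 16 in a 5'-UTR, 22 in another exon, 77 (28.2%) in an intron, 1 in a 3'-UTR and 47 (17.2%, interval 13.2 to 22.1) were distal intergenic. The distal intergenic share was below that of the Nrf2-only regions by a difference of -29.7 points (-34.0 to -24.5) and above that of the HIF1α-only regions by 8.05 points (3.99 to 13.0). A pair of divergent TSSs of different genes lay within 1 kb of the centre in 20 co-gained regions (7.33%), against 0.427% of Nrf2-only and 6.41% of HIF1α-only regions. Such a pair needs a TSS within 1 kb, and among regions at TSSs the share was 10.5%, against 6.82% of Nrf2-only regions, a difference of 3.71 points whose interval included 0 (-1.77 to 9.52). The co-gained regions were spread over all autosomes and X, with 30 on chromosome 1, 20 on chromosome 17 and 2 on chromosome 4.

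**Figure D1:**
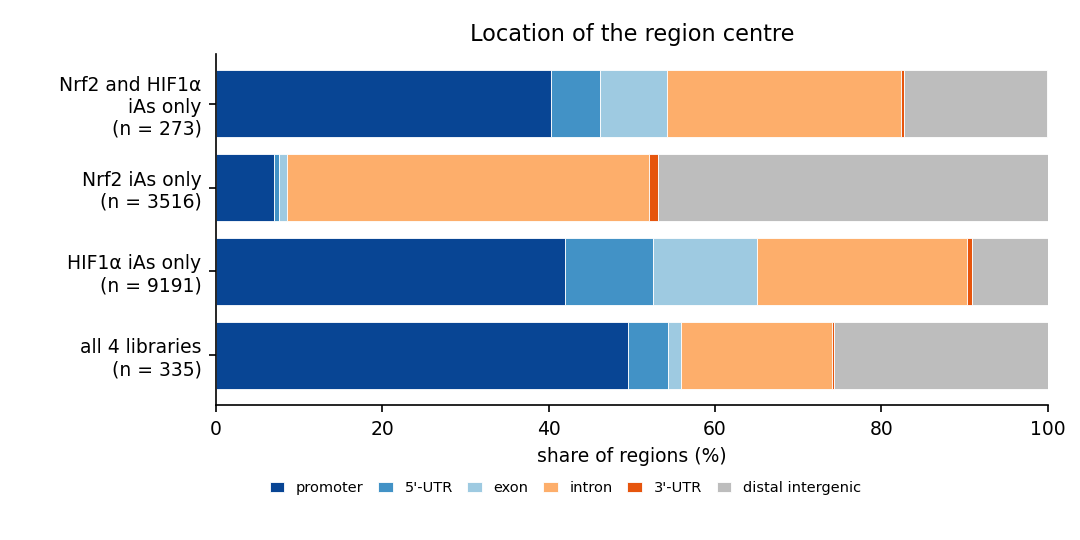
Horizontal bars give the share of regions (%) whose centre fell in each of 6 location classes, for the co-gained regions (Nrf2 and HIF1α iAs only) and 3 other classes of merged regions. Promoter, 5'-UTR and exon together take up a far larger part of the co-gained bar than of the Nrf2-only bar, which is nearly all intron and distal intergenic sequence.

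The centres of co-gained regions were rich in GC. The 200 bp around the centre had a median GC content of 69.0% in co-gained regions, 46.0% in Nrf2-only regions and 71.5% in HIF1α-only regions. The ratio of observed to expected CpG had medians of 0.797, 0.203 and 0.848 in the same order. Away from TSSs, the 83 co-gained regions had a median GC content of 67.0%, against 45.5% for the 3296 Nrf2-only and 69.5% for the 2050 HIF1α-only regions. Away means only over 1 kb from the start of a protein-coding transcript, and 12.0% of the 83 were in a promoter by class. GC content did not enter the rule that chose the regions. All 2080 words of 6 bases, counted with their reverse complements, were ranked by the difference in share from windows 5 kb to either side. CCCCGC came first by 53.7 points, present in 57.9% of co-gained centres and 4.21% of the shifted windows. The GC box GGGCGG, the element of SP1 and the KLF factors, was in 52% of co-gained centres, 5.66% of Nrf2-only centres and 56.7% of HIF1α-only centres, and in 54.0% of windows of the same length around the canonical TSSs of 19465 protein-coding genes.

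The antioxidant core TGACNNNGC, searched on both strands within 100 bp of the centre, was present in 41 of the 273 co-gained regions (15%) and in 7.14% of windows shifted by 5 kb, a difference of 7.88 points (3.38 to 13.0). The share was 33.7% in Nrf2-only regions and 9.06% in HIF1α-only regions, so the co-gained regions lay between them, lower than the first by a difference of -18.7 points (-22.8 to -13.7) and higher than the second by 5.96 points (2.16 to 10.7). Regions with all 4 libraries lay between them too, with 19.1%. The co-gained share differed from that by -4.09 points, with an interval that included 0 (-9.98 to 2.01). At TSSs the co-gained share again lay between, with 14.2% of co-gained, 30% of Nrf2-only and 8.65% of HIF1α-only regions. Of all canonical TSS windows 10% hold the core, a value inside the interval of the co-gained share at TSSs (9.95 to 19.9). Away from TSSs the shares were 16.9%, 34.0% and 10.5% in the same order. There the excess over HIF1α-only regions was 6.38 points, with an interval that included 0 (-0.314 to 15.9). The typical form TGACTCAGC was in 8 co-gained centres (2.93%), against 17.3% of Nrf2-only, 0.196% of HIF1α-only and 0.247% of all TSS windows. A match is a stretch of letters and not a measured site. Counted over the whole length of the regions, 133 cores lay in 102 of the 273 co-gained regions (37.4%), at a median of 109 bp from the centre of the Nrf2 interval and 145 bp from the centre of the HIF1α interval. Of these cores, 76 were nearer the Nrf2 centre and 57 nearer the HIF1α centre. Counted by interval the lean was the other way. There were 66 cores in both intervals, 30 in the Nrf2 interval alone and 35 in the HIF1α interval alone.

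The hypoxia element, ACGTG or GCGTG, was the more frequent of the 2 elements. It was in 137 of the 273 co-gained centres (50.2%) and in 27.1% of the shifted windows, a difference of 23.1 points (16.0 to 30). Its share in HIF1α-only regions was 51.5%, a difference of -1.33 points with an interval of -7.31 to 4.64, and in Nrf2-only regions 21.7%, a difference of 28.5 points (22.4 to 34.5). These 5 letters contain CG and are common where CG is common, and 43.4% of all canonical TSS windows hold the element, against 49.5% of co-gained regions at TSSs. Both elements together were in 22 co-gained centres (8.06%), and neither was in 117 (42.9%).

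The AP-1 element TGAGTCA, bound by FOS and JUN dimers and closely related to the antioxidant core, differed by location, in co-gained regions as in the other classes. In co-gained regions it was in 26 centres (9.52%) in all, in 10 of 190 regions at TSSs (5.26%) and in 16 of 83 regions away from TSSs (19.3%), a difference of -14.0 points between TSS and distant regions (-24.1 to -5.83). The shifted windows of the co-gained regions at TSSs had it in 4.47%, a difference of 0.789 points whose interval included 0 (-2.72 to 5.26). Regions with all 4 libraries had it in 5.50% at TSSs and 34.1% away from them, and Nrf2-only regions in 22.7% and 43.5%. Over both locations, Nrf2-only regions had the element in 42.2% of centres and HIF1α-only regions in 1.34%, below the 3.18% of their own shifted windows. Regions with all 4 libraries also lay between these classes, with 17.0%. Away from TSSs the co-gained share exceeded that of HIF1α-only regions by 16.7 points (9.65 to 26.5) and fell short of that of Nrf2-only regions by a difference of -24.2 points (-31.4 to -14.3). Over the whole regions, 44 of 69 AP-1 elements were nearer the Nrf2 centre and 25 nearer the HIF1α centre. The CCAAT box, an element of NF-Y, was in 11.6% of co-gained centres at TSSs, below the 25.3% of their shifted windows by a difference of -13.7 points (-19.7 to -6.96). Away from TSSs it was in 25.3% of centres and 20.5% of shifted windows, a difference of 4.82 points whose interval included 0 (-5.75 to 16.5). HIF1α-only regions at TSSs were also below their shifted windows, with 10.6% against 22.4%. Away from TSSs the CCAAT box was in 9.66% of HIF1α-only centres, which the co-gained share exceeded by 15.6 points (7.41 to 26.0), and in 24.8% of Nrf2-only centres. The ETS core CCGGAA was in 13.9% of co-gained centres and 14.4% of HIF1α-only centres, a difference of -0.442 points (-4.12 to 4.22).

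**Figure D2:**
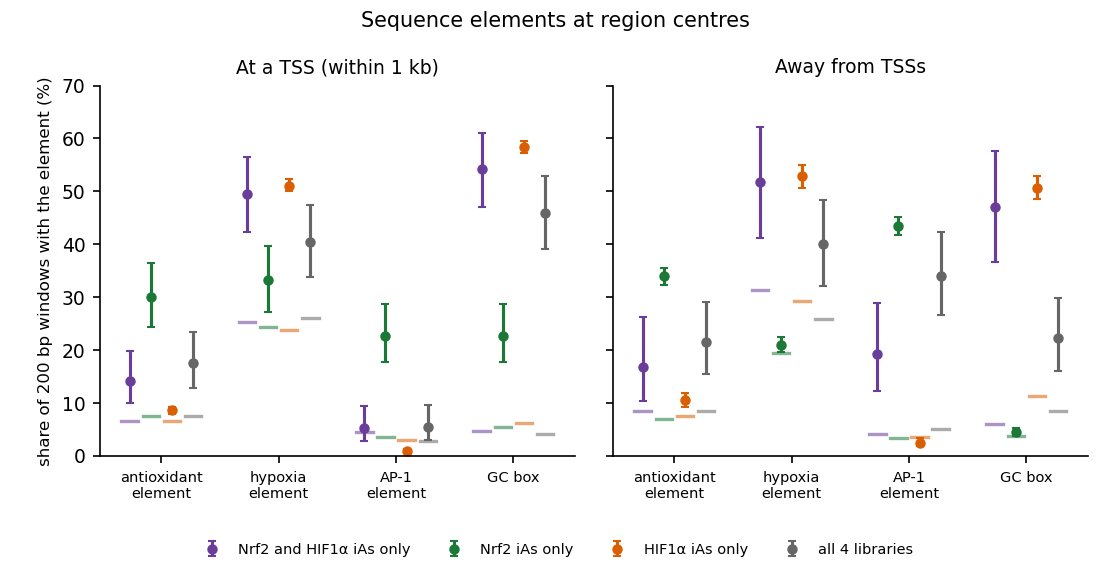
Points give the share (%) of 200 bp windows at region centres that hold an element, with 95% Wilson intervals, for 4 classes of regions at TSSs (left) and away from TSSs (right), and pale dashes give the share in windows 5 kb away. Co-gained regions have the hypoxia element and the GC box about as often as HIF1α-only regions, and the antioxidant and AP-1 elements at shares between those of the HIF1α-only and Nrf2-only regions, with the AP-1 interval at TSSs overlapping the dash.

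The pairs of intervals in the co-gained regions were close but seldom congruent. The Nrf2 interval had a median width of 263 bp (181 to 1559) and the HIF1α interval 397 bp (188 to 1678), and they shared a median of 205 bp (1 to 853). In 10 regions, among them those of MYC, USP14 and FRMD8, a library had more than 1 interval, and the pair with the longest shared stretch is given. In Nrf2-only regions the median width was 264 bp and in HIF1α-only regions 310 bp. The HIF1α intervals of co-gained regions were thus wider than those of HIF1α-only regions, while the Nrf2 widths were alike. Whether a rule based on overlap selects wide intervals was not tested. The HIF1α interval was wider than the Nrf2 interval in 186 regions (68.1%), the Nrf2 interval lay wholly inside the HIF1α interval in 96 (35.2%), and the reverse held in 28 (10.3%). The centres were a median of 102 bp apart and within 200 bp of each other in 214 regions (78.4%). At TSSs neither factor had a side of its own. The Nrf2 centre was upstream of the HIF1α centre, in the direction of the nearest gene, in 91 of 190 regions and downstream in 99. At TSSs the median width was 252 bp for Nrf2 and 454 bp for HIF1α, and away from TSSs 294 bp and 310 bp.

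**Figure D3:**
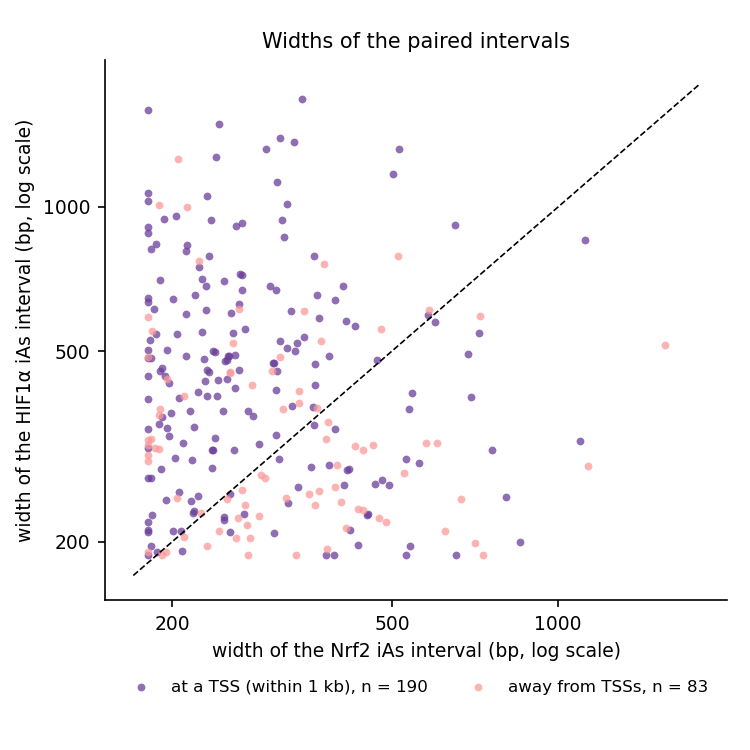
Each point is a co-gained region, with the width of its Nrf2 iAs interval (bp, log scale) against the width of its HIF1α iAs interval (bp, log scale), coloured by location. The dashed line marks equal widths, and 186 of the 273 regions lie above it, most clearly those at TSSs.

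Co-gained regions fell in the body or within 10 kb of 357 of 20163 protein-coding genes (1.77%). In the list of antioxidant and detoxification genes it was 10 of 36 (27.8%), of which the 9 described here are HMOX1, GCLM, TXNRD1, TXN, SRXN1, PRDX1, GSR, TKT and FTH1. The list was chosen with earlier results of these data known and holds textbook Nrf2 targets. Regions with a Nrf2 iAs interval alone were near 19 of the same 36 genes (52.8%) and near 9.83% of all protein-coding genes. Regions with a HIF1α iAs interval alone were near 12 of the 36 (33.3%), which is below their 42.2% of all genes, and regions with all 4 libraries were near 11. For this list, the shares of genes near Nrf2-only regions and near regions with all 4 libraries were thus also above those of all protein-coding genes (9.83% and 2.30%).

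The antioxidant genes with a co-gained region cover heme breakdown, glutathione, thioredoxin, sugar phosphate metabolism and iron storage. TXN encodes thioredoxin, the protein that reduces disulfides in its client proteins, and its region had the longest shared stretch of all 273. The Nrf2 interval covered chr9:113017663-113018781 (1119 bp) in intron 1 and the HIF1α interval of 853 bp lay wholly inside it. TXNRD1, the reductase of thioredoxin, had its region over exon 1, 93 bp downstream of the TSS, with a Nrf2 interval of 361 bp and a HIF1α interval of 351 bp that shared 274 bp. SRXN1, which repairs oxidized peroxiredoxins, had intervals of 453 bp and 228 bp sharing 180 bp, 348 bp downstream of its TSS. PRDX1, a peroxiredoxin, was counted through a region 82 bp upstream of the start of its neighbour AKR1A1, an aldehyde reductase, and 28.8 kb upstream of the canonical start of PRDX1. The intervals there shared only 52 bp.

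HMOX1, the heme oxygenase that opens the heme ring, had a Nrf2 interval of 560 bp with a HIF1α interval of 292 bp inside it, centred 102 bp downstream of its TSS in intron 1 (chr22:35776911-35777470). GSR, glutathione reductase, had intervals of 758 bp and 311 bp sharing 276 bp, 512 bp downstream of its TSS. GCLM, the modifier subunit of the enzyme that starts glutathione synthesis, was counted through a region in intron 1 of DNTTIP2, 30.6 kb from the start of GCLM, where a HIF1α interval of 200 bp lay inside a Nrf2 interval of 853 bp. That region holds the typical core TGACTCAGC, 270 bp from the Nrf2 centre. TKT, transketolase of the pentose phosphate pathway, had a Nrf2 interval of 361 bp wholly inside a HIF1α interval of 789 bp, and the centre of the region lay 456 bp downstream of the nearest TSS. FTH1, the heavy chain of ferritin, had a HIF1α interval of 1055 bp and a Nrf2 interval of 231 bp sharing 152 bp.

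Most of these regions had control intervals close by. A Nrf2 control interval lay within 10 kb of 7 of the 10 regions and within 30 kb of all 10, against 20.5% and 32.2% of all 273 co-gained regions. At TXN a Nrf2 control interval was 158 bp away and a HIF1α control interval 217 bp away. At SRXN1 the gaps were 284 bp and 138 bp, and at GSR the Nrf2 control interval was 96 bp away. In these 3 genes the neighbouring stretch also carried intervals of Nrf2 iAs and HIF1α iAs, and the gap from the co-gained region to the next Nrf2 iAs interval was 96 bp at TXN, 65 bp at SRXN1 and 48 bp at GSR. The co-gained regions of TXN, SRXN1 and GSR thus stood directly beside stretches with Nrf2 control intervals, while HMOX1, TXNRD1 and FTH1 had their nearest Nrf2 control intervals 3391, 1363 and 3896 bp away. The antioxidant core was within 100 bp of the centre in 0 of the 10 regions, a count of 0 that allows a share of up to 30%, and the hypoxia element in 3 of the 10. The 0 holds for this window only, since the regions of TXNRD1, GSR and GCLM held cores inside their Nrf2 intervals.

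**Figure D4:**
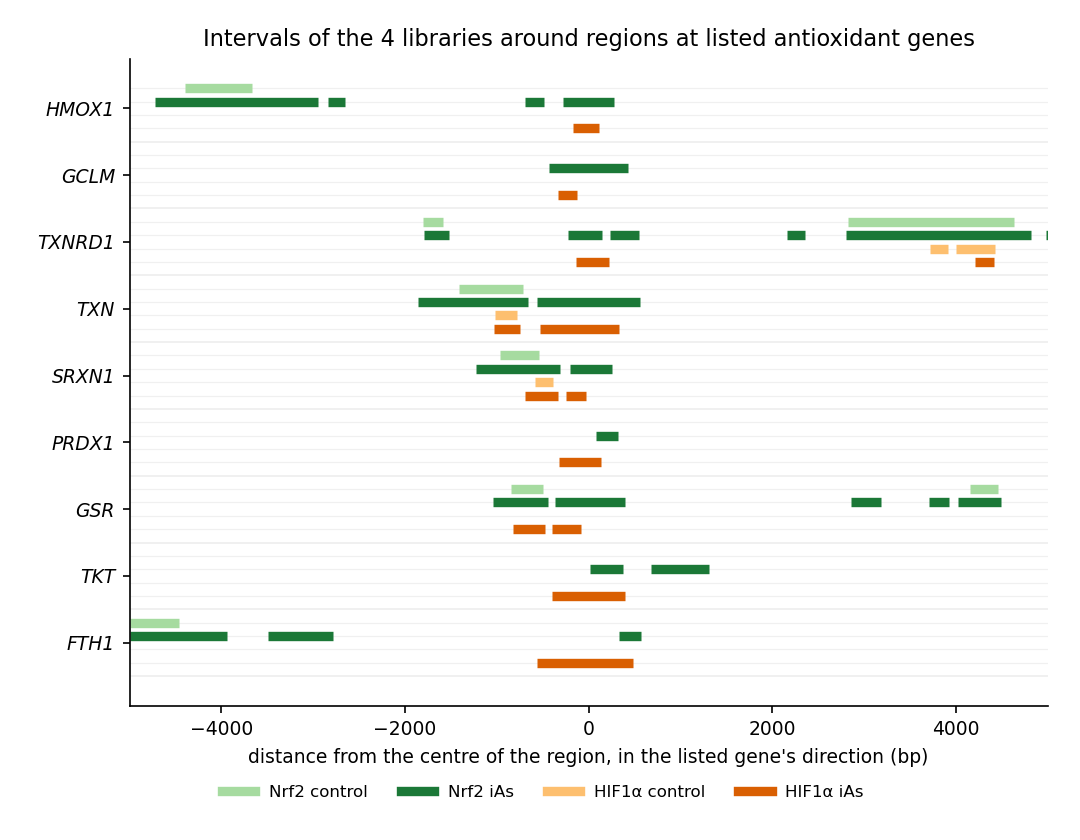
For 9 antioxidant genes, bars mark the intervals of the 4 libraries by distance (bp) from the centre of the co-gained region, in the direction of the listed gene. At TXN, SRXN1 and GSR, control intervals (pale) sit just upstream of the co-gained region, and at GCLM, PRDX1 and TKT no control interval lies within 5 kb.

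The list of ubiquitin and proteasome genes had co-gained regions at 5 of 42 genes (11.9%, beside 1.77% of all protein-coding genes), all near the start of the gene. PSMA5 and PSMB6 encode subunits of the core particle of the proteasome, PSMC3 an ATPase of its cap, USP14 a deubiquitinase on the cap, and NPLOC4 a cofactor of the segregase VCP. PSMC3 had a Nrf2 interval of 306 bp inside a HIF1α interval of 472 bp and the core TGACTCGGC 3 bp from the Nrf2 centre. PSMA5 had intervals of 433 bp and 197 bp sharing 162 bp, and 2 cores, the nearer 23 bp from the Nrf2 centre. PSMB6 had a HIF1α interval of 188 bp inside a Nrf2 interval of 392 bp, and USP14 a HIF1α interval of 227 bp inside a Nrf2 interval of 450 bp. NPLOC4 had intervals of 336 bp and 520 bp sharing 245 bp. The nearest Nrf2 control interval to these 5 regions was at least 202883 bp away, unlike at the antioxidant genes. HIF1α control intervals lay nearer, from 5946 bp away at PSMB6 to 108587 bp at USP14. Nrf2-only regions were near 5 of the 42 genes as well (11.9%) and HIF1α-only regions near 17 (40.5%), which are about their shares of all protein-coding genes (9.83% and 42.2%). Regions with all 4 libraries were near 7 of the 42 (16.7%), beside 2.30% of all protein-coding genes, so a raised share was not particular to co-gained regions.

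Each of the remaining lists had at most 2 genes with a co-gained region. Among 30 hypoxia response genes there were BHLHE40, a clock repressor, with 219 bp shared in intron 3, and JMJD6, counted through a region in intron 1 of MXRA7. Among 32 glycolysis genes there was only PFKFB3, which makes the activator of phosphofructokinase, and its region of 616 bp was the second in shared length, with 555 bp shared, 68 bp from the TSS. Among 31 stemness genes there were MYC, with 3 HIF1α intervals, the one given here of 324 bp inside a Nrf2 interval of 1093 bp, and KLF4, with a Nrf2 interval of 183 bp inside a HIF1α interval of 271 bp, 430 bp upstream of its TSS. MYC was also the 1 gene of 13 in the MYC and MAX network. The AP-1 and immediate early list had EGR3, through a distal region 10.1 kb upstream, and DUSP5, a phosphatase of ERK, of 24 genes. The integrated stress response had CEBPB and PPP1R15B, a subunit of the eIF2α phosphatase, of 21 genes.

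Further single genes were MT2A, a metallothionein that binds metal ions, as 1 of 25 heat shock and metal genes, with a HIF1α interval of 188 bp inside a Nrf2 interval of 531 bp. RHEB, the GTPase that activates mTORC1, and TBK1, a kinase of selective autophagy, were 2 of 34 mTORC1 and autophagy genes. CDKN2A, at an alternative start 20.4 kb upstream of its canonical one, and PLK2, a polo-like kinase, were 2 of 27 genes of the p53 and cell cycle list. The 7 lists without any co-gained region held 173 genes. They were the regulators of the Nrf2 and HIF1 pathways (0 of 30, which allows a share of up to 10%), hexosamine, serine and one-carbon metabolism (0 of 21), EGF receptor and ligands (0 of 16), inflammation (0 of 25), mitochondrial complex I (0 of 38), airway epithelial markers (0 of 22) and markers of blood and endothelium (0 of 21). Over all 18 lists, 29 of 480 genes had a co-gained region (6.04%), beside the 1.77% of all protein-coding genes.

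**Figure D5:**
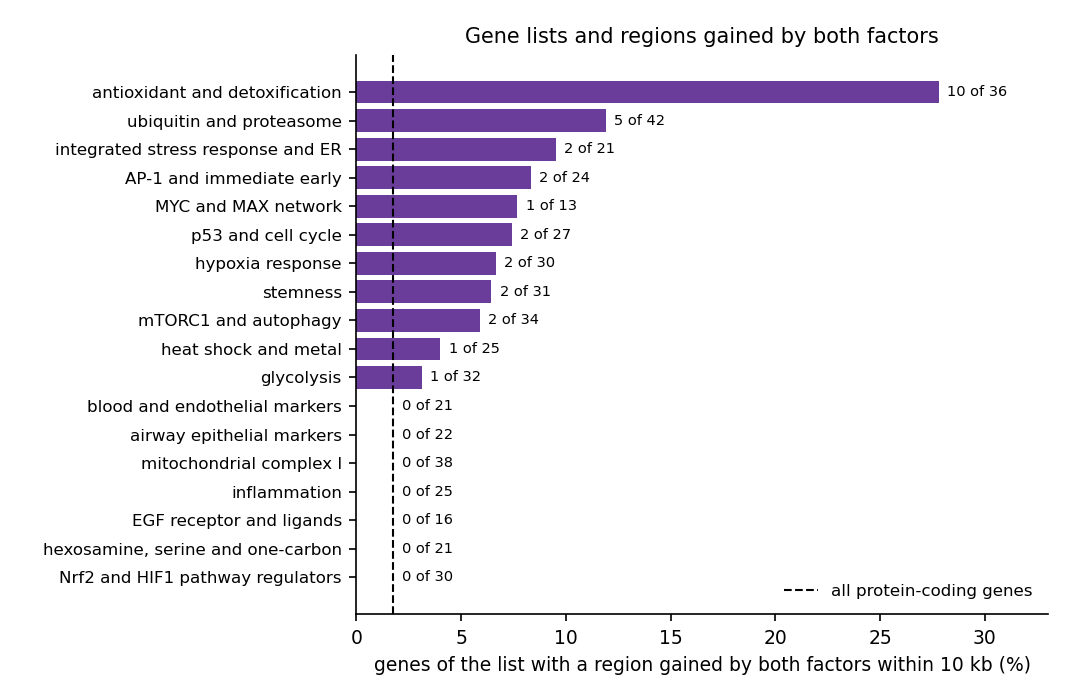
Bars give the share (%) of genes in each of 18 lists with a co-gained region in the gene body or within 10 kb, with the counts beside them, and the dashed line marks the 1.77% of all protein-coding genes. The antioxidant list stands highest with 10 of 36, followed by ubiquitin and proteasome with 5 of 42, and 7 lists are at 0.

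Beyond TXN and PFKFB3, the regions with the longest shared stretch were in part far from the start of a protein-coding gene. SPHK1, a sphingosine kinase, shared 553 bp at 1454 bp upstream of the TSS, and TFAP4, an E-box factor, shared 515 bp in intron 1. UBQLN1, a ubiquitin shuttle protein, shared 423 bp, LARP1, which binds mRNAs of the translation machinery, 420 bp, and POMP, the assembly factor of the proteasome, 408 bp. The region nearest TOB1 shared 535 bp at 63.7 kb upstream, and that nearest HES1, a repressor downstream of Notch, shared 478 bp at 65.3 kb upstream. The region nearest FRMD8 shared 421 bp at 35741 bp downstream of the TSS. It was classed as distal intergenic, though within 10 kb of the gene body, and the classes took only protein-coding genes into account. Of these 10 regions, only the SPHK1 region had an antioxidant core within 100 bp of its centre. In all, 7 genes had 2 co-gained regions each, namely MXRA7, PLS3, SEPTIN9, SH3BP4, SPEN, ZFR and ZMIZ1, and 29 co-gained regions had no protein-coding gene within 10 kb.

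Of the co-gained regions with the antioxidant core near the centre, those closest to a TSS were at TOMM5, a subunit of the mitochondrial import pore, ZNF593, NUSAP1 with OIP5, HGS with ARL16, PSMC3, RHCE with MACO1, TBC1D15, TBK1, PSMA5 and SPAG4. The core was 3 bp from the Nrf2 centre at TOMM5 and PSMC3 and 34 bp at SPAG4, but 389 bp at HGS, where the Nrf2 and HIF1α centres were 593 bp apart. At HGS and TBC1D15 the core lay outside the Nrf2 interval and inside the HIF1α interval. The nearest Nrf2 control interval to these 10 regions was between 67037 bp (ZNF593) and 1177806 bp (TBC1D15) away. For HIF1α control intervals the range was 3240 bp (SPAG4) to 306608 bp (TBK1).

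At the edge of the rule, the shortest shared stretches inside it were 1 bp at ARID5A, 2 bp at NEU1, 22 bp at PSAP and 37 bp at PRPF40B and CTNNA1. Just outside it, the Nrf2-only regions nearest a HIF1α iAs interval were at FKBP5, where the intervals touched with a gap of 0 bp, IDE with 2 bp, MACF1 with 11 bp, TXNRD1 with 14 bp and SLC2A3 with 15 bp, and 52 Nrf2-only regions had a HIF1α iAs interval within 200 bp. Towards the control libraries, the co-gained regions nearest a control interval were at SYNPO with a gap of 7 bp, BABAM2 with 37 bp, CAVIN3 with 51 bp and AKIRIN2 with 72 bp. A further 842 regions had both iAs intervals together with some control interval, and the smallest control overlap among them was 189 bp, at VGLL4, MRTFA and HSP90AB1. A control interval of either factor lay within 10 kb of 106 co-gained regions (38.8%), against 29.8% of Nrf2-only and 19.5% of HIF1α-only regions, and within 1 kb of 45 (16.5%). The excess over the Nrf2-only regions was not seen at TSSs. There the share within 10 kb was 35.3% of co-gained and 38.2% of Nrf2-only regions, a difference of -2.92 points (-12.1 to 6.43), and within 1 kb 15.3% and 25%, a difference of -9.74 points (-17.3 to -1.91). Away from TSSs the share within 10 kb was 47.0% and 29.2%, a difference of 17.7 points (7.26 to 28.5).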

How the data were processed

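The data were ChIP-seq intervals in BEAS-2B cells for Nrf2 and for HIF1α, from 4 libraries without replicates. The deposited file gives base positions on hg19, as the start and end of each interval and of the merged regions, without counts or heights. Per the labels, the authors aligned reads with BWA and used MACS2 2.1.0; the methods describe tags down-sampled within a group and MACS or SICER, without saying which made which list. The labels name antibodies from Santa Cruz (Nrf2) and Abcam (HIF1α), the methods Active Motif. Depth and precision per interval are unknown here.

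The members and the gene lists were chosen with earlier results of these data known. Overlaps, positions and elements were computed with NumPy 2.4.6, SciPy 1.17.1 and Python 3.11.15, figures with matplotlib 3.10.9, using GENCODE release 44 on GRCh37 (20163 protein-coding genes, 63781 basic transcripts). A centre was at a TSS within 1 kb. Location classes were tried in the order promoter, 5'-UTR, exon, intron, 3'-UTR, distal intergenic. Elements were searched on both strands in 200 bp. No p-value was computed; shares carry Wilson and differences Newcombe 95% intervals.

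Regions named singly were the 10 with the longest shared stretch, those at listed genes, the 10 nearest a TSS with the antioxidant core at the centre, and those at the edge of the rule. Alternatives were stricter overlaps, wider gaps to control intervals, other windows, transcripts and gene distances, and an own merge of the lists, which gave the same 273 regions. The steps were tested on simulated data. A gene of the antioxidant list enters the counts and is not reported here by name.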

Additional observations from a re-analysis of the deposited data

How the results depend on the processing

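With 1 library per condition, no heights and unknown depth, none of the counts can be set against variation between cultures, and an interval just under the caller's threshold counts as absent. Of 46 alternative values, 35 moved by less than the 95% interval of the share, or for counts stayed within 1.5 times. Asking for a reciprocal overlap of 50% left 127 regions and 151 genes, with 62.2% of the regions at a TSS. Keeping the wider 50% of each iAs list left 42 regions. The share at TSSs was 63.4% with canonical transcripts and 76.9% with a distance of 3 kb. Over the whole region, where the longer sequence holds more matches by construction, the antioxidant core was in 37.4%, the hypoxia element in 80.2% and AP-1 in 22.3% of regions. Centred on the Nrf2 interval, the antioxidant core was in 20.1% of windows, and its difference from Nrf2-only regions was then -13.6 points (-18.2 to -8.20). With genes up to 50 kb away, 682 genes were near a region. The cause of these moves was otherwise not tested.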

Other observations

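Genes with co-gained regions, nearly all outside the lists, were grouped by their known roles after their values were seen, so the groups are descriptions and nothing was tested on them. How many of all protein-coding genes have each role was not counted. The group counts therefore have no background share beside them and show no excess of any role. Microtubules and mitosis had 11 genes, among them the tubulins TUBA1B, TUBA1C and TUBB6, the spindle motors KIF11 and KIF18B, NUSAP1, and the dynein subunits DYNC1H1 and DYNC1LI2. The centre was 1 bp from the TSS at KIF11, where a Nrf2 interval of 217 bp lay inside a HIF1α interval of 296 bp, and 995 bp and 1000 bp downstream of it at TUBA1C and TUBA1B. Actin and intermediate filaments had 8 genes, with VIM, which encodes vimentin, sharing 316 bp and FLNA, which crosslinks actin, sharing 362 bp. The MAP kinase pathway had 6 genes, MAP2K1, MAPK6, MAPKAPK2, the phosphatases DUSP5 and DUSP7, and the ERK-responsive factor ETV5. Of these genes, DUSP5 is also in the AP-1 and immediate early list.

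Smaller groups had 5 redox enzymes that the lists did not hold (NQO2, AKR1B1, AKR1A1, DCXR and PGLS), 4 genes of the extracellular matrix (LOXL1, LOXL2, ADAM12 and MMP16) and 3 lysosomal genes (CTSD, PSAP and NEU1). NQO2, a quinone reductase, had a Nrf2 interval of 252 bp inside a HIF1α interval of 488 bp, 44 bp upstream of its TSS. AKR1B1, aldose reductase, had a Nrf2 interval of 366 bp inside a HIF1α interval of 654 bp over exon 1. At PSAP and NEU1 the shared stretch was 22 bp and 2 bp, among the shortest of all 273 regions, while CTSD shared 304 bp.

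Another Nrf2 iAs interval lay within 1 kb of 53 of the 273 co-gained regions (19.4%), against 19.8% of the Nrf2-only regions, and of 6 of the 10 regions at antioxidant genes. Another HIF1α iAs interval lay within 1 kb of 40.7% of the co-gained regions, against 41.9% of the HIF1α-only regions.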
